A study of Homo sapiens with 4 samples.

Results

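Isolated open regions are vehicle ATAC-seq peaks that stand far from every other peak of the same list. Members were chosen by measured values, the summit positions of the vehicle list. A peak was a member when no other vehicle summit lay within 30 kb on either side, on chromosomes 1 to 22. Of 185728 vehicle peaks on these chromosomes, 5012 met the rule, or 2.70% (exact 95% binomial interval 2.63 to 2.77). On their side of the comparison, 2787 peaks of the GSK2879552 list overlapped a member by 1 bp or more. The whole series holds 194551 vehicle and 163735 GSK2879552 peaks. The cells were LNCaP, a prostate cancer line that responds to androgen. They were given vehicle or GSK2879552, which blocks LSD1 (KDM1A), an enzyme that demethylates histones, at a labelled 50 µM for 4 hours. The labels give 5% CSS for the treatment medium and 10% FBS for maintenance, the same for both groups. Each group has 1 library, run on 2 lanes that the labels call technical replicates, and 1 peak list. Nothing in the labels names a second culture, so no test between conditions was possible and treatment cannot be told apart from library.

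In ATAC-seq a transposase cuts accessible DNA, so a peak marks a stretch where nucleosomes are absent or loose. Open regions tend to gather near genes and in enhancer clusters, where many factors bind within a short span. Gene-poor stretches hold few of them, and a lone open region there can be a single enhancer, an insulator site bound by CTCF, an unannotated promoter or an opened repeat. LSD1 removes methyl groups from histone tails at enhancers and promoters, and in prostate cells it works with the androgen receptor. In a bulk library, fewer cells with an open site and less opening per cell cannot be told apart. Positions are 1-based hg19 coordinates, and genes and sequences in that build were not used here.

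Isolated peaks had fewer tags and were narrower than the vehicle list as a whole, at the same median fold. The values of this paragraph come from the list that chose the members, and they are a description. Tags are the caller's pileup of sequenced reads at a summit, as recovered from the deposited fold and −log10 p. How reads were extended and duplicates handled is not stated. The median member had 17 tags at its summit (quartiles 13 and 26), against 22 (15 and 37) over all vehicle peaks. Tags of members went from 8 to 129, while the highest vehicle summit had 194. The authors' fold over background had a median of 5.44 in both sets, and of 4.86 over all peaks at the deciles of the members. The median width was 168 bp (125 to 244) for members and 189 bp (133 to 294) for all peaks. Regions of at least 500 bp made up 5.77% of members and 9.44% of all peaks. By −log10 p, 6.62% of members were in the strongest decile of the vehicle list, and 36.0% were in its lowest 3 deciles.

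The background around members was low. The caller compares each summit with a background, which is either the genome-wide level, 2.31 tags in the vehicle list, or a higher local level. Of the members, 86.1% stood at the genome-wide level, against 39.3% of all vehicle peaks. Among all peaks reweighted to the −log10 p deciles of the members, 43.1% did. By distance to the nearest other summit, non-members gave 24.8% within 1 kb and 23.7% at 1 to 3 kb. They gave 42.8% at 3 to 10 kb and 63.7% at 10 to 30 kb. Members gave 85.7% at 30 to 100 kb and 96.8% over 100 kb. Reads of nearby peaks can enter a local level, so the rule partly fixes this outcome. In the strongest decile members had a median of 62 tags and all peaks 72.

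A little over 50% of the isolated regions were also listed after GSK2879552. Of the 5012 members, 2656 overlapped a GSK2879552 peak, a share of 53.0% (exact interval 51.6 to 54.4). The share over all vehicle peaks of chromosomes 1 to 22 was 61.7%, a difference of -8.68 percentage points before strength was considered. Members without a partner numbered 2356, or 47.0%, where the background is 38.3%. A single GSK2879552 peak overlapped 2532 members, and 124 members overlapped 2 or 3. Such splits made up 4.67% of partnered members (3.90 to 5.54) and 5.12% of partnered vehicle peaks as a whole.

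Sharing followed strength, among members as among all vehicle peaks. Members in the 3 highest −log10 p deciles were shared in 1085 of 1094 cases, or 99.2% (98.4 to 99.6), and all vehicle peaks there in 99.4%. Members in the 3 lowest deciles were shared in 19.7% of cases (17.9 to 21.6), against 22.8% of all peaks there. All 289 members of at least 500 bp had a partner, while 34.0% of the members under 200 bp had one (32.4 to 35.7). For all vehicle peaks those shares were 99.7% and 37.8%. Nearly every wide or strong region was listed under both conditions, with or without neighbours.

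Within deciles of −log10 p, members were shared a little less often than all vehicle peaks of equal rank. In the weakest decile the shares were close, 18.7% of members (15.9 to 21.8) against 19.0% of all peaks. Decile 3 gave 21.4% (18.5 to 24.6) against 26.3%, and decile 5 gave 46.8% (42.8 to 50.8) against 52.5%. In decile 7 the shares were 88.1% (84.9 to 90.8) and 89.6%. In 4 of 10 deciles, numbers 2 to 5, the interval of the members lay wholly below the share of all peaks. With every vehicle peak reweighted to the deciles of the members, the share of all peaks was 55.8%, and the difference was -2.83 percentage points (members' interval -4.23 to -1.44).

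**Figure D1:**
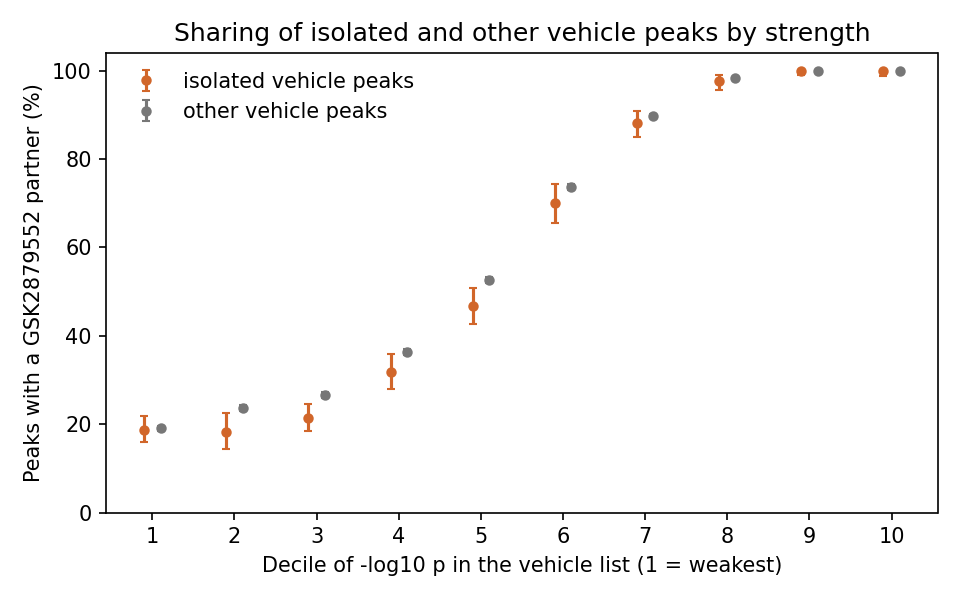
Share of vehicle peaks that overlap a GSK2879552 peak (%), by decile of −log10 p in the vehicle list, for isolated peaks and for the other vehicle peaks. Bars are exact 95% binomial intervals over peaks. Both sets climb from about 19% in decile 1 to 100% in decile 10, and isolated peaks lie lowest against the others in deciles 2 to 5.

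That difference depended on what counted as equal strength. Matched on summit tags instead of −log10 p, members were shared more often, with a difference of 3.30 points. Peaks with neighbours stood above the genome-wide background more often, as given above, so equal tags gave them a lower −log10 p. Restricted to peaks at the genome-wide background and matched on tags, the difference was -0.66 points, which is inside the counting interval of the members. In that subset members with 18 to 20 tags were shared in 53.1% of cases (48.7 to 57.5) and other peaks in 55.6%. With 12 or 13 tags the shares were 18.5% (15.7 to 21.5) and 22.2%, and with 26 to 30 tags they were 95.05% (92.1 to 97.1) and 93.2%. The sign of the gap thus differed between tag classes.

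With strength weighted, the lower sharing formed no step at 30 kb. Weighted to the strength deciles of all vehicle peaks, the share was 66.2% where the nearest summit lay within 1 kb, and 61.1% at 1 to 3 kb. It was 59.4% at 3 to 10 kb, 59.2% at 10 to 30 kb and 59.0% at 30 to 100 kb. The 155 members over 100 kb from any other summit gave 60.1%, with as few as 5 peaks in a decile. Without the weighting the shares were 63.1%, 63.8%, 61.6%, 58.9%, 53.1% and 49.0% in the same order. Against non-isolated peaks over 3 kb from their nearest summit, a reference chosen after these values were seen, the difference was -0.23 points. After weighting by −log10 p deciles, the classes that stood apart were those with a neighbour inside 3 kb, and most of all inside 1 kb. The distance classes were not compared at matched tags, so this pattern holds for that measure of strength only. Unweighted, the widest step between neighbouring classes was from 58.9% at 10 to 30 kb to 53.1% at 30 to 100 kb. These classes are wide. In narrower ones the unweighted shares were 56.6% at 20 to 25 kb, 57.7% at 25 to 30 kb and 55.2% at 30 to 35 kb. They were 51.6% at 35 to 40 kb and 52.1% at 40 to 50 kb, so the fall was not confined to 30 kb.

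**Figure D2:**
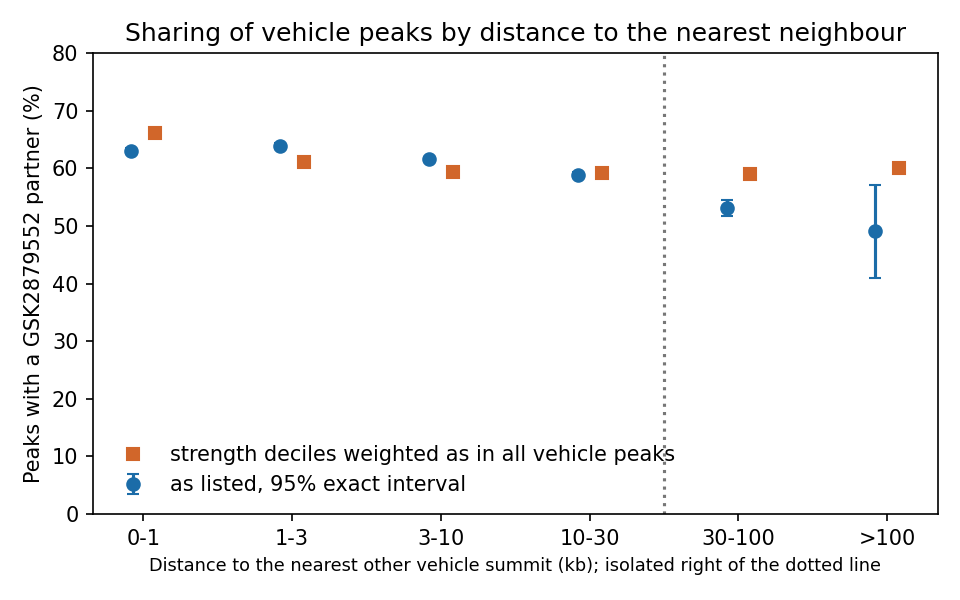
Vehicle peaks with a GSK2879552 partner (%), by distance to the nearest other vehicle summit in kb. Circles are shares as listed with exact 95% intervals, squares weight the strength deciles as in all vehicle peaks. The squares go from 66.2% within 1 kb to about 59% from 3 kb on, and do not drop at the dotted line that marks 30 kb.

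Around the rule's boundary the members resembled their neighbours in rank. The 1646 members 30 to 35 kb from the next summit were shared in 55.2% of cases (52.8 to 57.6), with a median of 18 tags. The 2688 peaks at 25 to 30 kb were shared in 57.7% (55.8 to 59.5), also with a median of 18 tags. The nearest members inside the rule lay at 30001, 30002 and 30004 bp. They were on chromosome 13 (91237796 to 91237895, 12 tags), chromosome 13 (60013551 to 60013671, 14 tags) and chromosome 3 (107646375 to 107646848, 49 tags). Just outside it, peaks at 30000, 30000 and 29995 bp had 9, 66 and 11 tags. They were on chromosome 12 (118903935 to 118904079), chromosome 17 (55333111 to 55334444) and chromosome 8 (84514452 to 84514591).

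The median member lay 39.1 kb from its nearest neighbour, and the median over all vehicle peaks was 3605 bp. A total of 1303 members were over 50 kb from any other summit, and 8 were over 200 kb. The 2 summits that flanked a member lay a median of 106.0 kb apart (83.7 to 149.8), over the 5011 members with a listed peak on both sides.

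The most isolated member was on chromosome 2, 221824100 to 221824556, a region of 457 bp with empty stretches of 272.3 and 245.6 kb. It had 30 vehicle tags (exact 95% Poisson interval 20.2 to 42.8). GSK2879552 peaks overlapped it in 2 places, the higher of them with 18 tags (10.7 to 28.4) at chromosome 2, 221824373 to 221824521. Both lists held no other summit within 200 kb of it. The next, on chromosome 8, 114058713 to 114058885, had 20 vehicle tags (12.2 to 30.9) and 12 GSK2879552 tags (6.20 to 20.96), and it too stood alone within 200 kb in both lists. Of the 5 most isolated regions, only these 2 were alone within 200 kb in both lists.

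The other 3 of the 5 most isolated regions were less empty in the GSK2879552 list. Chromosome 9, 11618522 to 11618813, had 41 vehicle tags (29.4 to 55.6) and a partner with 29 (19.4 to 41.6), at summits 10 bp apart. Beside that partner, the GSK2879552 list held 10 more summits within 200 kb, with 10 to 16 tags, where the vehicle list held none. Chromosome 16, 26360008 to 26360169, with 10 vehicle tags, had no partner, and 6 GSK2879552 summits lay within 200 kb of it, the nearest peak at 25.6 kb with 15 tags. Chromosome 20, 54207677 to 54207776, with 11 vehicle tags, had no partner either, and the nearest GSK2879552 peak lay 90.2 kb away with 10 tags. These regions were picked for being empty in the vehicle list.

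**Figure D3:**
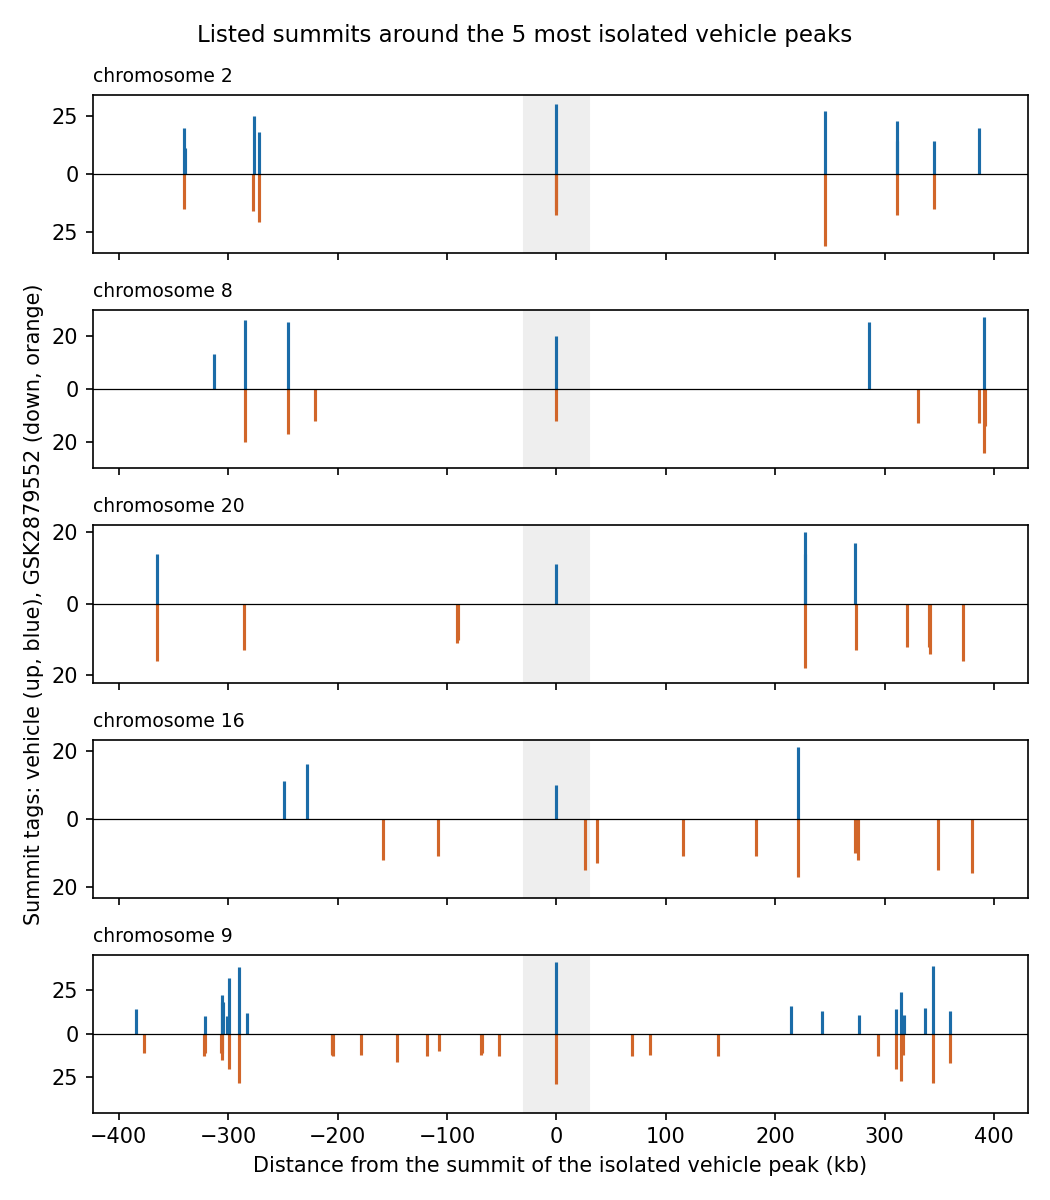
Listed summits within 400 kb of the 5 most isolated vehicle peaks, as distance from that peak's summit (kb) against summit tags, with vehicle upward in blue and GSK2879552 downward in orange. The grey band spans 30 kb on either side. The regions on chromosomes 2 and 8 stand alone within 200 kb in both lists, while the one on chromosome 9 has 10 further GSK2879552 summits within 200 kb.

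The strongest isolated regions were all listed under both conditions, with fewer tags after GSK2879552. The first by −log10 p, chromosome 1, 7058351 to 7058695, had 107 vehicle tags (87.7 to 129.3) and 78 GSK2879552 tags (61.7 to 97.3). GSK2879552 tags were scaled down by 1.18, the ratio of the genome-wide backgrounds of 2.72 and 2.31, which is proportional to depth if both lists were made alike. The scaled ratio of GSK2879552 to vehicle was then 0.620 (exact binomial interval 0.457 to 0.838). Chromosome 10, 2357218 to 2357704, had 108 and 94 tags, a ratio of 0.740 (0.555 to 0.985), with both summits at the same base.

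Chromosome 14, 73493491 to 73494134, carried 129 vehicle and 108 GSK2879552 tags, a ratio of 0.712 (0.546 to 0.927). On chromosome 5 a wide region of 1062 bp, 108084032 to 108085093, had 129 and 107 tags, a ratio of 0.706 (0.541 to 0.919). Chromosome 3, 158288761 to 158289453, had 102 vehicle tags and 2 partners, the higher with 90 tags, a ratio of 0.751 (0.559 to 1.006). The summits of these 5 regions moved by 0 to 10 bp between the lists. Their intervals lay below 1 in 4 of the 5 cases. Of all vehicle peaks in the strongest decile, 100% had a partner. Over all 1-to-1 pairs 94.3% had a scaled ratio below 1, whatever their interval. These 5 regions were picked for a high vehicle −log10 p, which favours high vehicle tags and so low ratios.

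The strongest isolated regions without a partner were all in decile 8 and at the genome-wide background. Chromosome 13, 72236127 to 72236376, had 31 vehicle tags (21.1 to 44.0), which would be 36.4 when multiplied by 1.18. The lowest number of tags at which the GSK2879552 list held a peak at the genome-wide background was 9. The nearest GSK2879552 peak lay 33.5 kb away. There were 30 tags each (20.2 to 42.8) at chromosome 1, 97396807 to 97396973, at chromosome 2, 186509667 to 186509835, and at chromosome 18, 64227387 to 64227599. The fifth, chromosome 1, 216874778 to 216875074, had 29 (19.4 to 41.6). For these 4 the nearest GSK2879552 peak lay 31.6, 25.96, 36.3 and 21.8 kb away. The GSK2879552 list does not give the tags at these positions, so no ratio can be stated.

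As a group, members without a partner were low. Their median was 13 tags (12 to 16) and their highest value 35, against a median of 25 (18 to 36) for members with a partner. Their median width was 129 bp (109 to 162), against 220 bp (168 to 329). Of the 2356, 1161, or 49.3%, had a −log10 q of at least 5 in the vehicle list, against 70.8% of all members and 74.9% of all vehicle peaks. That level depends on the depth of the list.

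Where an isolated region was listed once in each list, it had fewer tags after GSK2879552. Such 1-to-1 pairs numbered 2532 among members, with a median of 24 vehicle tags (18 to 35) and 18 GSK2879552 tags (14 to 26). The scaled ratio was below 1 in 2364 of them, or 93.4%, against a background of 94.3% over all 106808 pairs. The median log2 ratio was -0.57 (quartiles -0.80 and -0.34, exact interval of the median -0.58 to -0.56). Summed over pairs, 57329 GSK2879552 tags against 73089 vehicle tags gave a scaled ratio of 0.667 (0.660 to 0.675). Before scaling, 80.7% of the pairs had fewer GSK2879552 tags, against 83.5% of all pairs. Among pairs, the lower tags at isolated regions were thus close to those of the lists as a whole. Regions without a partner, 47.0% of members and 38.3% of all vehicle peaks, have no ratio and are not in these values.

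Compared at equal vehicle strength, the median log2 ratio of all pairs was -0.54, and the difference of members from it was -0.03. In decile 7 the medians were -0.76 for members and -0.67 for all pairs, and in decile 9 they were -0.72 and -0.64. In decile 10 they were -0.57 and -0.55. In the weakest decile both were 0.11, and 93 of 134 member pairs there had a scaled ratio above 1; a pair so near the listing threshold is seen only when its GSK2879552 tags also reached it. With both backgrounds at the genome-wide level (1955 member pairs) and vehicle tags matched, a setting chosen after the values were seen, the difference was 0.01. It was -0.035 with pairs matched on tags summed over both lists, -0.048 with vehicle tags matched over all backgrounds, and -0.037 with the background subtracted. Isolated pairs thus had slightly lower ratios in each of these settings except among pairs at the genome-wide background. The differences were small beside the quartiles of the ratios, and no interval was computed for them.

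**Figure D4:**
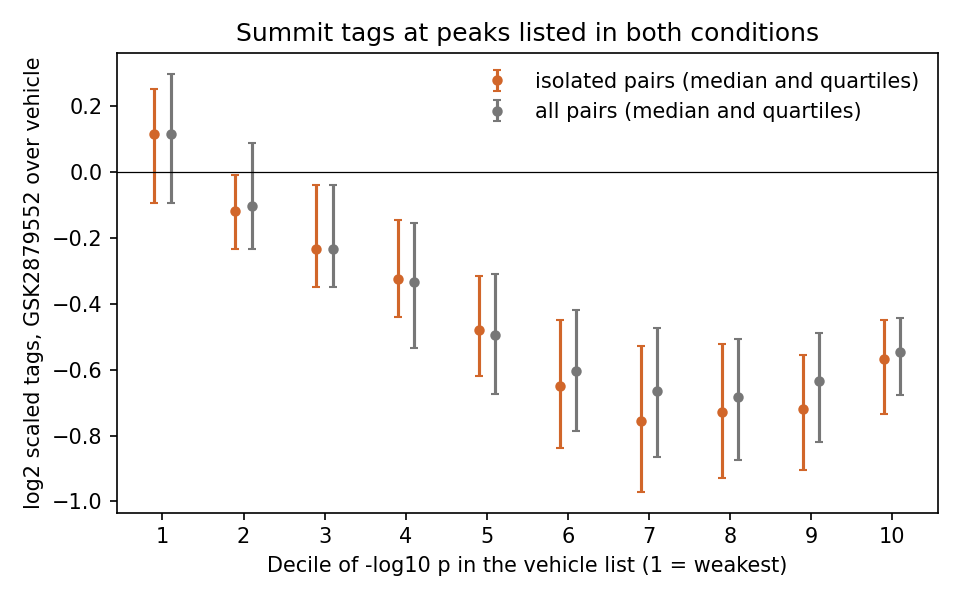
Log2 of scaled summit tags, GSK2879552 over vehicle, at 1-to-1 pairs, by decile of vehicle −log10 p. Points are medians and bars quartiles over pairs, for isolated and for all pairs. Medians go from 0.11 in decile 1 to near -0.7 in deciles 7 to 9, where isolated pairs lie slightly lower, and quartiles overlap in every decile.

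Ratios under 0.5 were found at 251 member pairs, or 9.91% (8.78 to 11.1), where the background over all pairs is 7.09%. At the same vehicle deciles all pairs gave 6.83%. Among pairs whose tags summed to at least 60 over both lists the shares were 6.14% (4.43 to 8.27) for members and 3.82% for all pairs. Among pairs with both backgrounds at the genome-wide level and the same vehicle tags, the shares were 10.997% for members and 10.7% for all. Ratios above 1 were found at 168 member pairs, or 6.64% (5.70 to 7.68), against a background of 5.73% and against 7.396% at the same deciles.

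Of the 651 member pairs whose tags summed to at least 60, 648 had a scaled ratio below 1, or 99.5% (98.7 to 99.9), near the 99.0% of all such pairs. The lowest was chromosome 13, 53334240 to 53334714, with 44 vehicle and 21 GSK2879552 tags, a ratio of 0.406 (0.229 to 0.697). Chromosome 18, 11074846 to 11075175, followed with 56 and 27 tags, a ratio of 0.410 (0.249 to 0.660). Chromosome 4, 153186297 to 153186645, had 41 and 20 tags, a ratio of 0.415 (0.230 to 0.725). Of these 3, only the interval of the second lies wholly below 0.667, the ratio of the summed tags of members.

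Higher scaled tags after GSK2879552 were seen in the remaining 3 of these pairs. Chromosome 18, 4510726 to 4511057, had 41 vehicle and 60 GSK2879552 tags, a ratio of 1.24 (0.823 to 1.90), and lay 33.0 kb from its nearest neighbour. Chromosome 8, 4980408 to 4980998, had 25 and 36 tags, a ratio of 1.22 (0.715 to 2.13). Chromosome 18, 50319086 to 50319264, had 40 and 49 tags, a ratio of 1.04 (0.672 to 1.62), with stretches of 75.7 and 232.7 kb free of vehicle summits. All 3 intervals include 1 and lie above 0.667. The lowest and highest of many pairs are extreme partly through counting error.

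Paired members had nearly the same summit in both lists and were mostly narrower with GSK2879552. The median distance between the paired summits was 18 bp (6 to 38), and 83.6% of pairs had summits within 50 bp, against 83.7% of all pairs. The peak was narrower with GSK2879552 in 80.3% of member pairs (78.7 to 81.8), where the background is 81.2%, and 79.8% of all pairs were narrower at the same vehicle deciles. The median width was 214.5 bp with vehicle and 171 bp with GSK2879552. In both measures the members were near the background.

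Isolation in the vehicle list did not always hold in the GSK2879552 list. Another GSK2879552 summit, apart from the member's own partners, lay within 30 kb of 1994 members, or 39.8% (38.4 to 41.2). In the other direction, 64.8% of isolated GSK2879552 peaks (63.6 to 66.0) had a vehicle summit other than a partner within 30 kb. Around the members, 2886 distinct GSK2879552 peaks lay within 30 kb, partners left out. Of these, 99.8% had no vehicle partner, where the background among GSK2879552 peaks is 23.8%. This is largely fixed by the rule, which leaves no other vehicle summit there. Their median was 12 tags (11 to 14). A core of 1573 members had a partner and no other summit within 30 kb in either list, with a median of 25 tags (18 to 36) and a width of 220 bp (167 to 325).

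The GSK2879552 list held more isolated peaks by the same rule, 6537 of 157286, or 4.16% (4.06 to 4.26). With the vehicle list shortened to 157286 peaks by −log10 p, it held 6363 isolated peaks, so the counts were close at equal list length. Of the isolated GSK2879552 peaks, 1509, or 23.1%, overlapped an isolated vehicle peak. A larger part, 3152 or 48.2%, overlapped only vehicle peaks that had neighbours. Within 30 kb of these stood 5579 further vehicle peaks with a median of 14 tags (12 to 17), of which 99.9% had no GSK2879552 partner. The rule largely fixes that share, since it leaves no other GSK2879552 summit there, and the background is 38.3%. The remaining 1876, or 28.7%, had no vehicle partner. Sharing in this direction was 71.3% (70.2 to 72.4) for isolated GSK2879552 peaks, 76.2% for all GSK2879552 peaks, and 72.5% for all of them at the deciles of the isolated ones.

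GSK2879552 peaks in stretches with no vehicle summit within 30 kb and no vehicle partner numbered 1773. That is 4.73% of the GSK2879552 peaks without a vehicle partner (4.52 to 4.95). They had a median of 12 tags (11 to 13) and at most 22. Isolated vehicle peaks without a partner, given above, had a median of 13 and at most 35. These sets are not mirror images, since the GSK2879552 peaks may have neighbours in their own list. Tags of both are unscaled here.

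Isolated regions were unevenly spread over the chromosomes. Chromosome 2 held 622, chromosome 4 held 512 and chromosome 13 held 284, together 28.3% of members but 15.2% of vehicle peaks. As a share of the peaks of the chromosome they were 5.73% on chromosome 13, 5.07% on chromosome 4 and 4.74% on chromosome 2. At the other end were 0.96% on chromosome 22, 1.17% on chromosome 19 and 1.20% on chromosome 15. Chromosomes 13, 4 and 2 also had the fewest vehicle peaks per Mb of listed span, 51.7, 52.9 and 53.9, and chromosome 22 the most, 94.4. A chromosome with fewer peaks leaves wider gaps, so this order follows in part from the rule.

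On all 22 chromosomes the GSK2879552 list held more isolated peaks than the vehicle list, from 1.08 per vehicle member on chromosome 20 to 1.63 on chromosome 15. On chromosome 2 there were 835, or 8.38% of its GSK2879552 peaks. The GSK2879552 list was the shorter one on all 22 chromosomes, which leaves wider gaps. At equal list length the totals were close, 6363 isolated peaks for vehicle and 6537 for GSK2879552. The share of members with a partner was below that of all peaks at the same strength mix on 18 of 22 chromosomes. On 3 of them the interval lay wholly below it, and on none wholly above. These were chromosome 2, with 50.8% (46.8 to 54.8) against 57.0%, chromosome 13, with 48.2% (42.3 to 54.2) against 54.5%, and chromosome 21, with 35.6% (23.6 to 49.1) against 50.4%. Strength here means −log10 p deciles only. With tags matched instead, the difference over all members was 3.30 points, or -0.66 at the genome-wide background. The median log2 tag ratio of member pairs went from -0.67 on chromosome 13 to -0.45 on chromosome 16.

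**Figure D5:**
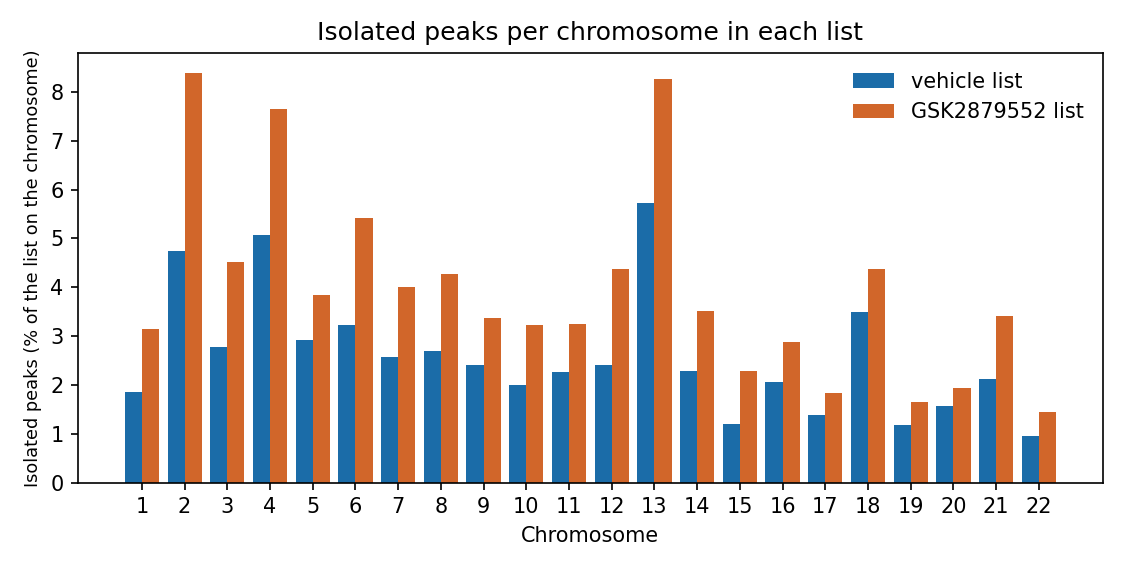
Isolated peaks as a share (%) of each list's peaks on a chromosome, by the 30 kb rule applied to each list. Bars start at 0, blue for vehicle and orange for GSK2879552. The GSK2879552 bar is higher on all 22 chromosomes, with 8.38% on chromosome 2 and 8.28% on chromosome 13. The GSK2879552 list is also the shorter one on each of them, which leaves wider gaps.

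Some members followed one another in the list. The next listed peak on at least 1 side was also isolated for 51.8% of members, a description that the rule on gaps partly fixes. The longest run, 15 members in a row, spanned 2010.7 kb of chromosome 1, 193824186 to 195834853, with 9 to 34 tags. Of these 15, 5 had a partner. The GSK2879552 list held 36 peaks in that span, 31 of them without a vehicle partner and with a median of 13 tags. On chromosome 7, 67343317 to 68532645, 8 of 10 members in a row had a partner, and 21 of 30 GSK2879552 peaks had none in the vehicle list. The members are the only vehicle peaks in a run, so any GSK2879552 peak there that overlaps no member lacks a vehicle partner. The choice of runs thus fixes these counts, and the background among GSK2879552 peaks is 23.8%.

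Other long runs were sparse in both lists. On chromosome 4, 179133483 to 181285291, 12 members faced 14 GSK2879552 peaks, and on chromosome 13, 55373706 to 56619559, 11 members faced 9. A second run on chromosome 4, 131159412 to 132130876, had 10 members against 4. The 5 longest runs of isolated GSK2879552 peaks went both ways as well. The longest, 15 peaks on chromosome 4, 179012296 to 180980444, faced 11 vehicle peaks, and 10 on chromosome 8, 3757574 to 4399648, faced 5. On chromosome 2, 56750053 to 58468660, 13 isolated GSK2879552 peaks, all with a partner, faced 34 vehicle peaks. On chromosome 4, 171774727 to 173079374, 10 faced 22, and on chromosome 13, 96825749 to 97328317, 9 faced 19. The runs were picked for length, by a choice made after the values were seen.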

How the data were processed

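The series holds 4 samples, 2 lanes of 1 library for each of 2 conditions, and 1 peak list per condition. The submitters' processing notes name hg19 and GRCh37 as builds, and as tools MACS2 2.1.2, a peak caller, SAMtools 0.1.18 and BWA 0.7.2. Trimming, duplicate removal and cut-site shifts are not stated there. Every deposited list has a score (10 times the −log10 q), a fold ratio of summit over background with 1 added to each, −log10 p and q values, and the summit offset. The lists stop at a −log10 q of 1.31 for vehicle and 1.30 for GSK2879552.

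Summit tags and backgrounds were solved from fold and −log10 p. For 100% of rows of both lists a whole number of tags gave the deposited −log10 p within 0.001, and the solver was tested on simulated data. Total tags per library are not stated. Deciles of −log10 p were taken over vehicle peaks of chromosomes 1 to 22, with ties kept together. Shares and ratios carry exact Clopper-Pearson binomial intervals at 95%, and tags carry exact Poisson ones. All cover counting error only, and neighbouring peaks share it. Named regions were the 5 strongest, the 5 strongest without a partner, the 5 most isolated, the 3 lowest and 3 highest ratios at 60 or more tags, and the 3 nearest the boundary on each side. The members and rules were chosen with earlier results of these data known. The planned gene, marker and motif rows need hg19 references and were not analysed here. Python 3.11.15, NumPy 2.4.6, pandas 2.3.3, SciPy 1.17.1 and Matplotlib 3.10.9 were used.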

Additional observations from a re-analysis of the deposited data

How the results depend on the processing

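No paired analysis was possible because each condition had 1 library, and for the same reason no replicate could be left out. Where a value moved, the cause was not tested unless the setting itself shows it. The share of members with a partner, 53.0%, was 45.3% with a reciprocal overlap of 50%, 55.4% at an isolation distance of 20 kb, and 49.0% at 100 kb. It was 55.8% with isolation and partners at a −log10 q of at least 5. With only GSK2879552 partners at that level, chosen after the data were seen, it was 39.2%, since fewer partners count. The difference from all vehicle peaks of equal rank, -2.83 points, was -1.26 at 50 kb and -4.54 with no other summit of either list within 30 kb. It was -0.66 matched on tags at the genome-wide background, and it turned to 3.30 matched on tags over all backgrounds. Against non-isolated peaks over 3 kb from a neighbour it was -0.23, and 0.66 with tags also matched at the genome-wide background, both chosen after the data were seen. The median log2 ratio of member pairs, -0.57, was -0.33 with no scaling, -0.64 with the background subtracted, -0.61 at 60 or more tags, and -0.53 at 50 kb. Its difference from all pairs, -0.03, was -0.048 with vehicle tags matched, -0.035 with summed tags matched and -0.037 with the background subtracted. With vehicle tags matched and both backgrounds at the genome-wide level, chosen after the data were seen, that difference was 0.0069. Isolated vehicle peaks numbered 12357, 1303 and 155 at 20, 50 and 100 kb, and isolated GSK2879552 peaks 14437, 1898 and 243. With only peaks at a −log10 q of 5 or more, 7492 vehicle and 10343 GSK2879552 peaks were isolated. Depth limits what a missing partner shows, since tags below the listing threshold are not given. The narrowest vehicle peak was 100 bp wide, and members without a partner had a median width of 129 bp. Whether narrowing took regions off the GSK2879552 list was not tested.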

Other observations

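Chromosomes X and Y were outside the rule and held larger shares of isolated peaks. On chromosome X, 581 of 4999 vehicle peaks were isolated at 30 kb, or 11.6% (10.7 to 12.5), and 305 of them, or 52.5% (48.3 to 56.6), had a GSK2879552 partner. On chromosome Y there were 109 of 1178, or 9.25% (7.66 to 11.1), of which 59.6% (49.8 to 68.9) had a partner. The median isolated peak had 18 tags on chromosome X and 17 on chromosome Y, close to the 17 of the autosomes. The GSK2879552 list held 645 isolated peaks on chromosome X and 133 on chromosome Y.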
